A study of Homo sapiens with 2 samples.

Results

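The colony stimulating factor genes CSF1, CSF2 and CSF3 encode secreted cytokines that control the production and activity of myeloid cells. Each was taken at its hg19 position, and every HMGB2 region within 5 kb of it was collected. Only CSF3 had any: 1 of the 364 broad regions and 1 of the 2792 narrow regions lay there, 2 of 3156 regions in all. CSF1 and CSF2 had none in either list, and the 5 kb windows around both were empty.

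HMGB2 is a chromatin protein that binds and bends DNA with little preference for sequence. It was mapped by chromatin immunoprecipitation (ChIP) and sequencing in IMR90, a human lung fibroblast line kept in 2% oxygen, with 1 rabbit antibody for both conditions. The senescent cells had been infected with RAS, an oncogene, the control cells were growing, and both were taken at day 2, with 1 library of each from 10 ng of ChIP DNA. The labels do not name the RAS allele or the vector, nor say whether the growing cells received a vector. The lists hold regions that the authors called in senescent against growing cells, as positions without a score, fold or read count. The depth of both libraries is therefore unknown, the size of a difference cannot be given, and no result has a replicate check. The direction, higher in senescent than in growing cells, rests on the list names alone, which put senescent first. All narrow regions were 264 bp wide, and broad regions were 500 bp or wider.

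Colony stimulating factors act through receptors on the surface of blood cell precursors and mature myeloid cells. CSF1 (macrophage colony stimulating factor) signals through the receptor tyrosine kinase CSF1R and keeps monocytes and macrophages alive. CSF2 (granulocyte-macrophage colony stimulating factor) signals through CSF2RA and the shared chain CSF2RB, and CSF3 (granulocyte colony stimulating factor) through CSF3R, which drives the formation of neutrophils. Fibroblasts are a known source of all of these ligands, and senescent fibroblasts secrete cytokines and growth factors as the senescence-associated secretory phenotype, whose gene loci are named in the title of the study. The question taken from that title was whether the ligand genes carry such HMGB2 regions, and where along the gene.

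CSF3 had a broad region across its downstream end. The gene lies at chr17:38171614-38174066 (hg19, positions increasing from gene start to gene end), and the broad region at chr17:38173682-38175908. The region began 2068 bp after the gene start, at 84.3% of the gene's length, and ended 1842 bp past the gene end. Of its 2226 bp, 384 bp (17.3%) lay inside CSF3, where they covered the last 15.7% of the gene. The region's midpoint stood 729 bp past the gene end. No region of either list overlapped the start of CSF3 or the 5 kb before it.

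The narrow region at CSF3 lay wholly outside the gene and wholly inside the broad region. It was placed at chr17:38174299-38174563, from 233 to 497 bp past the gene end. Its centre stood 749 bp into the broad region, at 33.6% of its width, so the 2 lists marked the same place on the downstream side. The 2 lists were called on the same pair of libraries, and a place found in both is no independent repeat. The next protein-coding gene after CSF3 is MED24, a subunit of the Mediator complex, and the one before it is PSMD3, a proteasome subunit. These neighbours were read from a GRCh38.p14 gene table. Whether the 1842 bp past CSF3 reached MED24 was not determined, since no hg19 annotation of exons or neighbouring genes was used here.

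**Figure D1:**
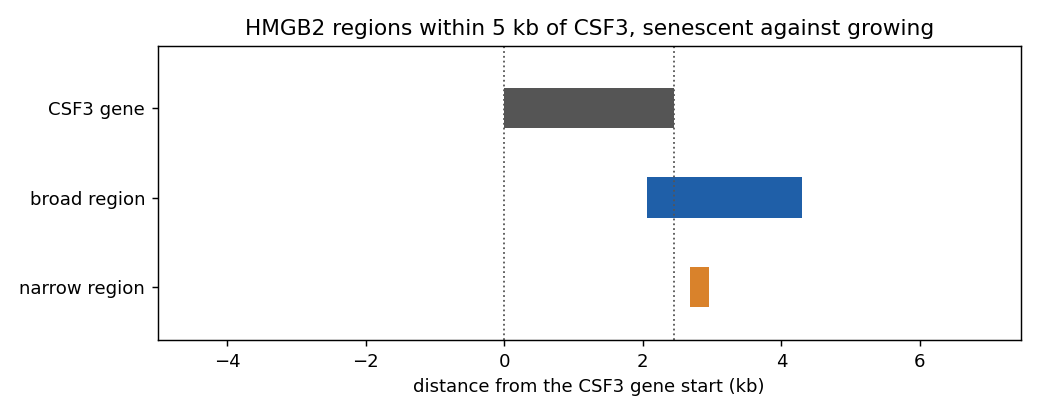
CSF3 and the HMGB2 regions within 5 kb of it. The horizontal axis is the distance from the gene start in kb, dotted lines mark gene start and gene end, and bars show the gene, the broad region of 2226 bp and the narrow region of 264 bp. The broad region crosses the gene end, and the narrow region begins 233 bp past it.

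The presence of regions at CSF3 was set beside how rare regions were along the genome. Stretches as long as the CSF3 window (12.5 kb, the gene with 5 kb on each side) were laid end to end between the outermost regions of each chromosome. Of these stretches, 0.153% held a broad region and 1.2% a narrow region. For stretches as long as the CSF2 window (12.4 kb) the shares were 0.155% and 1.2%, and for those as long as the CSF1 window (29.1 kb) 0.34% and 2.76%. The empty windows of CSF1 and CSF2 were thus the usual state of such a stretch, and the lists do not set these genes apart. These shares count all stretches alike, whatever genes they hold, and the genes were chosen with earlier results of these data known. Stretches of sequence that cannot be mapped were counted too, which lowers the shares.

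Among all broad regions, the one at CSF3 was wide and stood early in the list. Its 2226 bp was the 12th largest width of 364. The next wider region measured 2264 bp, the next narrower 2156 bp and the widest 6140 bp. Of the broad regions, 53 exceeded the smallest width of 500 bp, with a median of 1048 bp, so the region at CSF3 was 2.12 times that median and 4.45 times the smallest width.

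**Figure D2:**
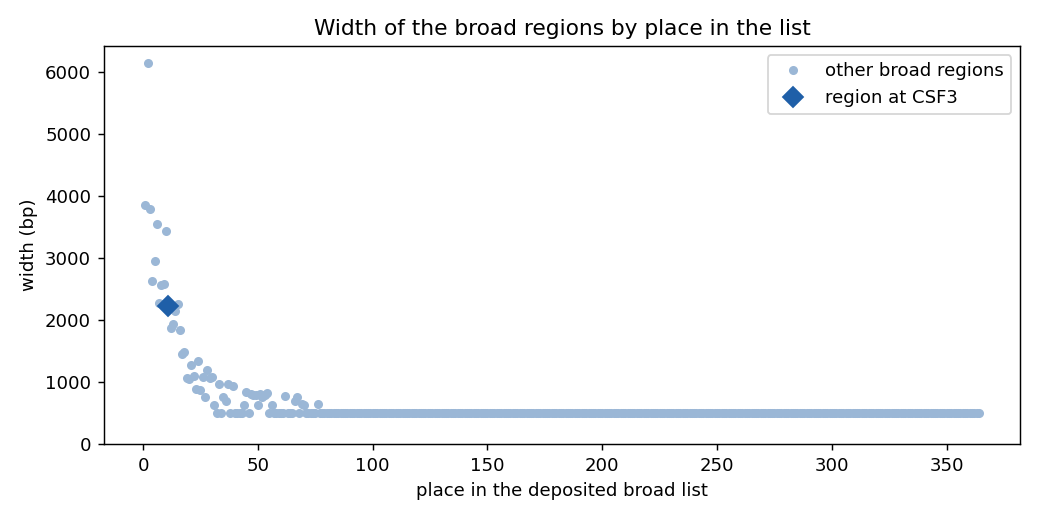
Width of all 364 broad regions in bp against their place in the deposited list, with the region at CSF3 as a dark diamond. The region at CSF3 is at place 11 with 2226 bp, and no region wider than 500 bp stands after place 76.

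The broad region at CSF3 stood at place 11 of 364 and the narrow region at place 14 of 2792. What the order of the lists stands for is not stated. In the broad list, width fell along the order: Spearman's rho between place and width was -0.60 over 364 regions and -0.91 over the 53 wider than 500 bp, as a description of regions that share both libraries. All 11 broad regions up to and including that of CSF3 were wider than 500 bp, and 7 of them overlapped a narrow region by 1 bp or more. Of the 14 narrow regions up to and including that of CSF3, 13 overlapped a broad region by the same measure.

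CSF3 also held the second place on its own chromosome. Chromosome 17 had 15 broad regions, 5 of them wider than 500 bp. The one at CSF3 was the second widest and the second in order, after a region of 2570 bp at place 8, and the third measured 794 bp. Of the 58 narrow regions on chromosome 17, that of CSF3 was again the second in order, with the first at place 8 and the third at place 33.

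Within the broad region, the narrow region at CSF3 was not unusual in its position. In all, 21 of the 53 broad regions wider than 500 bp overlapped a narrow region by 1 bp or more, 20 of them exactly 1, and CSF3 was among these 20. Measured from the nearer edge of the broad region, the centres of the 22 narrow regions, 2 of which ran past the edge, ranged from 4.81% of the width up to its middle, with a median of 42.9%. The centre at CSF3 stood at 33.6%, and 8 of the 22 were nearer to an edge. To its gene-side edge the narrow region at CSF3 left 617 bp, and to the far edge 1345 bp.

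The broad region at CSF3 stood alone on its part of chromosome 17. The next broad region lay 11.1 Mb before the gene, and on the other side 19.7 Mb after it. A second narrow region lay 81.6 kb past the gene end, at chr17:38255671-38255935 and place 561. This was the nearest region outside the 5 kb window of any of the 3 genes, and the next narrow ones lay 1.24 Mb after and 1.92 Mb before CSF3.

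**Figure D3:**
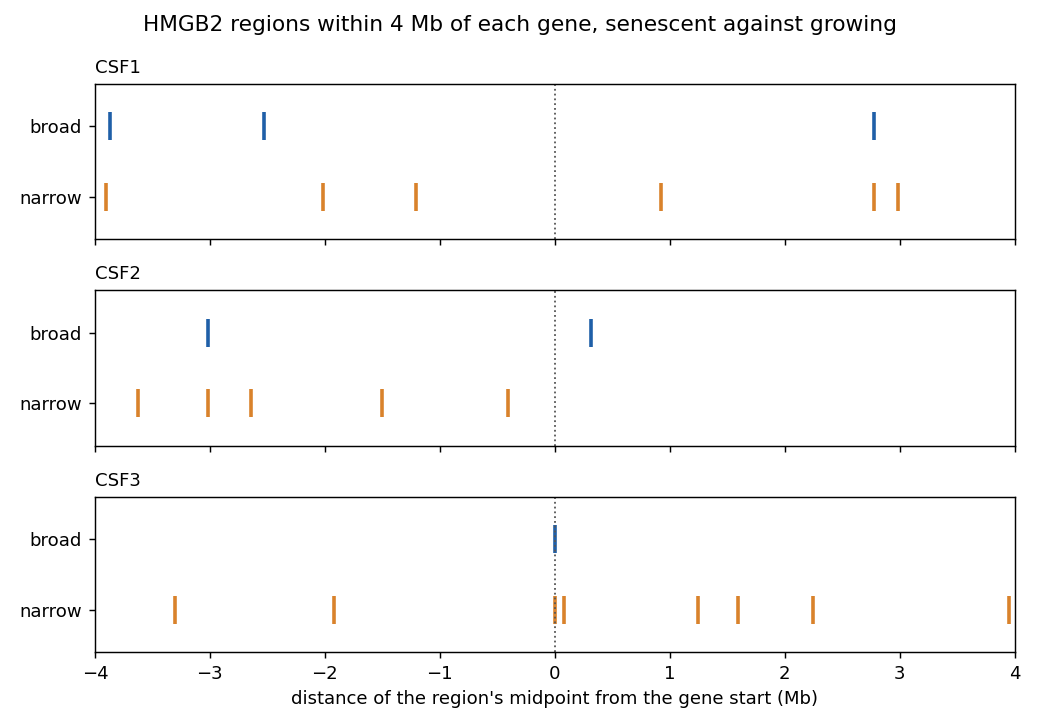
HMGB2 regions around each gene, as ticks at the region's midpoint on an axis of distance from the gene start in Mb, with broad regions above narrow regions in each panel. Regions stand at the dotted line of the gene start for CSF3 only. On this axis the nearest ticks to CSF2 lie 0.312 Mb after and 0.409 Mb before the gene start. The nearest tick to CSF1 lies 0.926 Mb after its gene start.

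CSF2 had no region within 100 kb. The gene lies at chr5:131409485-131411863. Its nearest broad region, at chr5:131721384-131721884, began 310 kb past the gene end, had the smallest width of 500 bp and stood at place 333 of 364. Its nearest narrow region, at chr5:131000051-131000315, lay 409 kb before the gene start, at place 425 of 2792. These 2 regions lie on opposite sides of CSF2 and do not overlap.

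The promoter of CSF2 is part of the sequence that no region reached. The 300 bases from 250 before to 50 after the gene start (RefSeq, GRCh38.p14, chr5:132073539-132073838, plus strand) are printed with the letters CATTA and CATTT in capitals on both strands. Repeats of this element are a known part of the human CSF2 promoter.
CSF2 promoter: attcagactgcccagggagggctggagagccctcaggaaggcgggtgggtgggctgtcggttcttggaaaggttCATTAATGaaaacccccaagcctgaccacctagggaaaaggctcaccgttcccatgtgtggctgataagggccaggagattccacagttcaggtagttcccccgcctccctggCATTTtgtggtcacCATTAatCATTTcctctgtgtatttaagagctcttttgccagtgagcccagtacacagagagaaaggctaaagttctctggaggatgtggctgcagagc
The stretch held 4 matches on the plus strand and 1 on the minus strand, the last overlapping a match on the plus strand. Of 34796 promoters of this length, 52.2% held at least 1 match and 2.45% held 5 or more. Since the element was already known from the CSF2 promoter, these shares only describe how common it is and are no test of CSF2. The matches are letters in a window, not measured binding, and promoters of CSF1 and CSF3 are not printed here.

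The side past the end of CSF2 was poor in narrow regions, but the side before its start was not. Past the gene end the nearest narrow region lay 8.594 Mb away. Before the gene start the nearest ones lay 0.4092, 1.501 and 2.646 Mb away. The gene lay in a stretch of 9.01 Mb without a narrow region, from 131000315 to 140005567, the longest such stretch on chromosome 5, where the next longest measured 5.16 Mb. Over all chromosomes it ranked 6th of 2768, and the median was 0.648 Mb. The stretch was not empty of HMGB2 calls, since 3 broad regions of 500 bp lay in it, the first of them the nearest one to CSF2. By order in the GRCh38.p14 table, the protein-coding neighbours of CSF2 are IL3, a related cytokine that shares the receptor chain CSF2RB, and P4HA2, a collagen prolyl hydroxylase. IL3 was not placed against the lists.

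CSF1 was the farthest of the 3 genes from any region. It lies at chr1:110453233-110472355 between EPS8L3 and AHCYL1, by order in the same table. The nearest narrow region, at chr1:111379104-111379368 and place 1877 of 2792, began 907 kb past the gene end. On the other side the nearest narrow region ended 1.21 Mb before the gene start, at place 343. The nearest broad regions were 2.53 Mb before and 2.76 Mb after CSF1, both of 500 bp and at places 205 and 120. CSF1 is the longest of the 3 genes, at 19.1 kb against 2.38 kb for CSF2 and 2.45 kb for CSF3, and none of its length was covered.

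No place called in both lists lay within 5 kb of CSF1 or CSF2. Over all chromosomes, 100 broad regions overlapped a narrow region by 1 bp or more, with 7 on chromosome 1, 2 on chromosome 5 and 5 on chromosome 17. The nearest of them to CSF1 lay 2.76 Mb past the gene, at chr1:113230074-113230574. The nearest to CSF2 lay 3.02 Mb before the gene, at chr5:128390943-128391443. Both were 500 bp wide, and for CSF3 it was the region across the gene end. How much of each chromosome lies as near to such a place was not measured, so these distances cannot be called long or short.

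Distance was also read against the chromosome each gene lies on, over the span between its outermost regions. On chromosome 1, 40.5% of the span lay as near to a broad region as CSF1 did, and 71.9% as near to a narrow one. On chromosome 5, 7.09% of the span lay as near to a broad region as CSF2 did, and 54.3% as near to a narrow one. On chromosome 17, 0.0148% of the span lay inside a broad region, as the end of CSF3 did, and 0.0523% lay within 233 bp of a narrow one. CSF1 was thus at an ordinary distance from both lists, and CSF2 at an ordinary distance from narrow regions. The distance of CSF2 from the broad region was among the shorter ones on its chromosome but still 310 kb. These shares count single positions, while a gene's distance was taken from its nearer edge. A stretch as long as a gene would therefore come as near more often than the shares state, which matters most for the small shares at CSF3. Stretches of sequence that cannot be mapped were not left out of these spans.

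**Figure D4:**
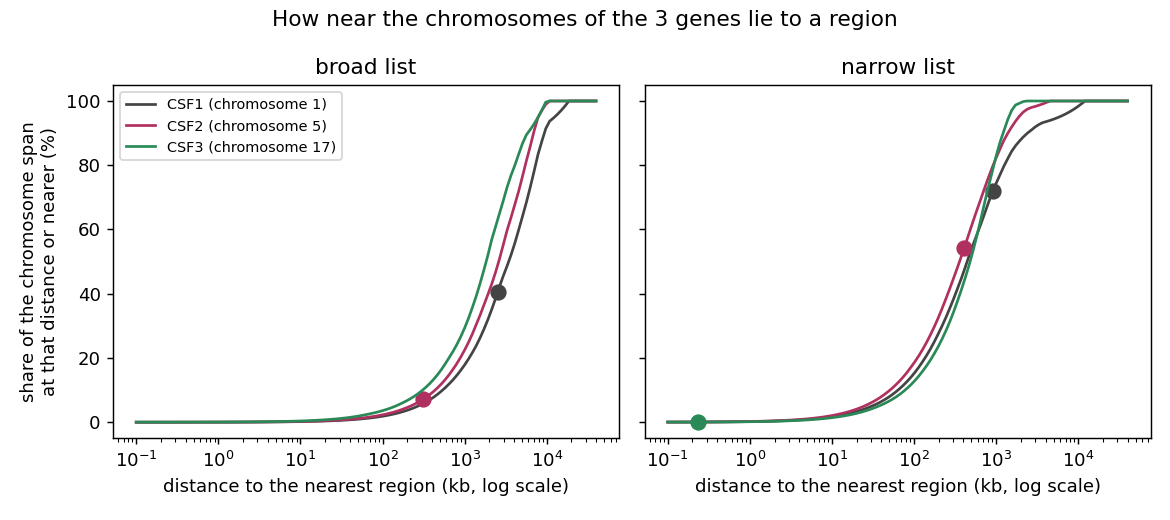
Share of the chromosome span (%) that lies within a given distance (kb, log scale) of a broad region, left, or a narrow region, right, for the chromosomes of the 3 genes. Filled circles mark each gene at its own distance, and CSF3 has none for the broad list because the region overlaps the gene. CSF1 and CSF2 stand at 71.9% and 54.3% in the narrow panel, and CSF3 at 0.0523%. The shares count single positions, while each gene's distance is taken from its nearer edge.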

How the data were processed

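HMGB2 was measured by ChIP-seq in 1 library of senescent and 1 library of growing IMR90 cells, grouped by the cell condition in the labels. Per the submitters' processing notes, hg19, HOMER 1.0 and Bowtie 0.12.9 were used, with no role stated. How peaks were called and filtered, any input control and the read depth are not stated. The authors deposited a broad and a narrow list with, per the file headers, an identifier, chromosome, start and end of each region in bp, and no other value.

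Gene positions are in hg19. Region positions were read as 1-based, although this is not stated, and widths and distances are differences of positions, edge to edge. A region counted with 1 bp or more within 5 kb of a gene. With 1 library per group and no score, no test was made. Alternatives were windows of 0 to 100 kb, midpoints, starts counted from 0, the first 50% of each list, wider regions only and merging within 1 kb. The members, lists and results were chosen with earlier results of these data known. The rule for named genes was the 3 members and their protein-coding neighbours in a GRCh38.p14 table, plus a list of 27 ligand, receptor and signalling genes. That list needs hg19 positions and was not analysed here. Promoters came from RefSeq. Distances and window counts were tested on simulated data (200 of 200 planted regions recovered). Python 3.11.15, numpy 2.4.6, pandas 2.3.3 and matplotlib 3.10.9 were used.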

Additional observations from a re-analysis of the deposited data

How the results depend on the processing

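The count of 1 broad region at the 3 genes held under all its alternatives, with windows up to 100 kb. Wider windows were counted per gene: at 500 kb CSF2 had 1 broad and 1 narrow region, and at 1000 kb CSF1 had 1 narrow region. Over the 3 genes, the count of 1 narrow region became 0 with no window, since that region begins 233 bp past CSF3, and 2 with 100 kb. Starts counted from 0 moved no width, overlap or distance by more than 1 bp. Measured from gene start to region midpoint, the nearest broad region was 2528014 bp from CSF1, 312149 bp from CSF2 and 3181 bp from CSF3, and the nearest narrow region 926003, 409302 and 2817 bp. In the first 50% of each list, which holds fewer regions by construction, the nearest broad region was 2757719 bp from CSF1 and 6393387 bp from CSF2, and the nearest narrow region was 1210623 bp from CSF1. Among broad regions wider than 500 bp it was 3871290 bp from CSF1, and chromosome 5 held none, so CSF2 has no value there. Merging within 1 kb left the width at CSF3 at 2226 bp. For that width this alternative was chosen after seeing the data, as were starts counted from 0 for the width and for the overlap with the gene. No paired analysis was possible because a single library stands for each condition, with nothing to pair. Unknown depth limits what an empty window can show: signal below the authors' threshold leaves no region.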
